A study of Mus musculus with 9 samples.

Results

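The genes described here encode antioxidant and drug-metabolising enzymes, together with the transcription factor NRF2, its inhibitor Keap1, the aryl hydrocarbon receptor and a pair of export pumps. The list holds 50 of the 54838 genes in the count table, each found by matching its symbol to the Ensembl identifier of the table. The members were chosen by the measured counts of 1 gene: Sult1c2, a cytosolic sulfotransferase, had no read in the knockout clone while it was expressed in both other groups, so the levels of Sult1c2 in the 3 groups are given as a description without a test. RNA was measured in PDA530 Met cells, a mouse pancreatic ductal adenocarcinoma line grown out of the liver metastasis of a male KPC animal, a genetic model of pancreatic cancer (mixed 129/SvJae/C57Bl/6 background). The knockout group is clone E4, in which Zdhhc20, a palmitoyltransferase gene, was edited with CRISPR/Cas9. The control group is clone C5, which received the same guides by nucleofection and was not edited, and the parental group is the uncloned line, which the design text names PDA50 Met. All 9 cultures were untreated and grown in DMEM with 10% foetal bovine serum, and each group had 3 replicates. The knockout and the control are 1 single-cell clone each, so a difference between them is a difference between clones, and what the edit adds to it cannot be told apart from what cloning adds. Errors and p-values measure the spread between replicates within the clones and the line, in 1 estimate per gene shared by the 3 groups. Those of the knockout against the parental cells thus also hold the spread of the control clone, the widest of the 3.

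NRF2 (Nfe2l2) is a transcription factor that Keap1 holds in the cytoplasm and hands over for degradation. Oxidants and electrophiles modify Keap1, after which NRF2 enters the nucleus and binds antioxidant response elements in genes for glutathione synthesis, thioredoxin reduction and detoxification. Drug metabolism is often described in phases: cytochromes P450, reductases and dehydrogenases modify a compound, transferases attach glutathione or sulfate to it, and pumps of the ABCC family export the conjugate. NRF2 activity is known to support the growth of pancreatic carcinoma cells.

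The core of the antioxidant response element is printed here because it is the sequence through which NRF2 reaches its targets. Promoters of 39 members were matched in RefSeq (build GRCm38.p6), and 11 were not matched. The letters TGACNNNGC, on either strand, lay in the 250 bases before a RefSeq transcription start of 8 of these 39 members, against 11.5% of the 27025 genes in the table: Nfe2l2, Txnrd1, Gclm, Prdx1, Sod1, Gstm5, Mgst1 and Abcc4. Sequence further upstream was not searched. Nfe2l2, Sod1 and Gstm5 were lower in the knockout in both comparisons, and Abcc4 was higher in both. Txnrd1 was higher against the control clone alone, and Gclm and Prdx1 passed in neither comparison. Mgst1 had 4 counts in the knockout, 32 in the control and 309 in the parental group. The windows below run 5′ to 3′ along the strand of the gene, with the matched letters in capitals. They are examples, and their directions do not stand for those of the 8. In the fit of all 9 libraries Nfe2l2 (chr2:75704664-75704913, minus strand) fell in the knockout clone, and Gclm (chr3:122245307-122245556, plus strand) did not pass the test. Abcc4 (chr14:118706220-118706469, minus strand) rose, and Mgst3 (chr1:167393842-167394091, minus strand) fell and holds no such letters in its window.
Nfe2l2: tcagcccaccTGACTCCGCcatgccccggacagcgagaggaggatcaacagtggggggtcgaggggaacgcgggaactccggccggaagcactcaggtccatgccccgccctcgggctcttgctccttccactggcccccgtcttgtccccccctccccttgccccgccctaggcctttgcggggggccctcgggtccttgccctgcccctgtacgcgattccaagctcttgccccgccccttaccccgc
Gclm: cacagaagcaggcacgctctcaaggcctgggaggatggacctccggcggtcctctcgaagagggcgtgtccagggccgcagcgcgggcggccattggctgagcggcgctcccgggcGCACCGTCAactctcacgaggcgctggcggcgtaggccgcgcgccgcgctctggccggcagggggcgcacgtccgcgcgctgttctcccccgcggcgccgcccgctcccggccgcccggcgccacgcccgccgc
Abcc4: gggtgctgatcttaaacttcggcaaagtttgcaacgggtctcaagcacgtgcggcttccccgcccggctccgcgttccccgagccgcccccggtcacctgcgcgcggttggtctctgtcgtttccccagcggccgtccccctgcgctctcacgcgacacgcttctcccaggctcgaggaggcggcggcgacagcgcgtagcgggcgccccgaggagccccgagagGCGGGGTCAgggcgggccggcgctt
Mgst3: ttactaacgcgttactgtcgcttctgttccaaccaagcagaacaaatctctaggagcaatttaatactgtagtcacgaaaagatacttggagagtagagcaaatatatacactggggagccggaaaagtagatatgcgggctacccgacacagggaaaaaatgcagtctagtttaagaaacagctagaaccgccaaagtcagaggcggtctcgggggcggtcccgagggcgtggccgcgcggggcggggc
The match starts 240 bases before the start of Nfe2l2 on the sense strand, 134 bases before that of Gclm on the antisense strand and 25 bases before that of Abcc4 on the antisense strand. None of these 4 windows touches an exon of its own gene in GENCODE M21, and the Nfe2l2 window overlaps an exon of the antisense gene E030042O20Rik. Other windows do touch exons of their own gene, with 211 of 250 bases for the matched window of Mgst1. For Sult1c2, Aldh3a2 and Gpx1 it was 250, 198 and 177 bases. The shorter core of the dioxin response element, GCGTG, to which the aryl hydrocarbon receptor binds, was in the window of 21 of the 39 members on either strand, against 30.9% of all genes, Cyp1b1 among them. A match is a string of letters and was not measured as a bound site.

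Library totals ran from 16525869 to 23192701 counts, and 13153 genes were tested. Zdhhc20 fell in the knockout clone, by 1.53 ± 0.15 (log2 fold change ± SE) against the control clone and by 1.12 ± 0.15 against the parental cells (adjusted p = 6.97e-05 and 0.000585). All 8 ductal carcinoma markers were tested, and their summed level was 4410 to 4546 CPM (counts scaled to the library total after TMM adjustment) in the knockout libraries, 7285 to 9749 in the control and 6822 to 8301 in the parental. Krt8, Krt18, Krt19, Cdh1 and Muc1 were apart lower in the knockout, Krt7 was lower against the control clone alone (-1.0 and 0.09, adjusted p = 0.000198 and 0.578), and Sox9 was called in neither comparison. Epcam was near 0, at means of 0.610, 0.150 and 0.198 CPM, and passed the filter on low counts through the knockout libraries alone. The hepatocyte list summed to 905 to 1160, 1383 to 2341 and 1151 to 1628 CPM in the same order, nearly all of it Apob, while Alb stayed at or under 0.118 CPM and Cyp2e1 was at 0. Fibroblast, leukocyte, endothelial and acinar lists each summed to at most 7.66 CPM in any library, with Col1a2, Col3a1, Dcn, Lum, Adgre1, Cd3e, Cpa1, Pnlip and Ctrb1 at 0 throughout. The fibroblast gene Pdgfra was apart lower in the knockout, at means of 0.702, 1.68 and 2.94 CPM (adjusted p = 0.0239 and 0.00281), and the hepatocyte gene Ttr had 0, 12 and 72 counts. Apob, Cd68 and the acinar gene Cela1 were called lower against the control clone alone, and the acinar list summed to 1.22 to 1.32, 3.99 to 7.66 and 1.64 to 2.94 CPM. The ductal and acinar sums, Pdgfra and Ttr moved with the knockout results below, and their part in them was not tested.

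The largest differences lay in the knockout clone, where most glutathione transferases, the aldehyde dehydrogenases Aldh1a1 and Aldh3a1, the epoxide hydrolase Ephx1 and the quinone reductase Nqo1 were lower than in both other groups. In these bulk libraries fewer expressing cells and less RNA per cell cannot be told apart. A gene was called where the adjusted p of edgeR's quasi-likelihood test was under 0.05, and it was apart in a group if both other groups differed from it by a call with the same sign. Of the 50 members, 46 passed the filter on low counts, and 40 were above its level of 0.565 CPM in every library. Nqo1, Gsta2, Gstt1, Mgst1, Cbr3 and Sult1c2 passed without any knockout library above that level: they could be tested because they were higher elsewhere, so their levels in the knockout are described below without a test. Gpx2, Gpx3, Aldh1b1 and Sult1a1 had at most 5 counts in a group and were not tested. Among the 45 tested members other than Sult1c2, 31 were called between the knockout and the control clone, 4 higher and 27 lower in the knockout, where 42.9% of all tested genes were called (18.7% higher and 24.2% lower). Their median log2 fold change was -0.67, and that of all tested genes was -0.02. Against the parental cells 29 were called, 3 higher and 26 lower, where 31.4% of all genes were called (13.1% higher and 18.3% lower), with medians of -0.81 and -0.01. Apart in the knockout clone were 26 members, 2 of them higher (Akr1b3 and Abcc4) and 24 lower, against 21.5% of all tested genes (8.19% higher and 13.4% lower). With an absolute log2 fold change of 1 or more both times, 15 members remained, all lower, against 7.37% of all genes (1.38% higher and 5.98% lower). Leaving out the 5 tested members that had passed without a knockout library above the filter level, 26 of 40 were called against the control clone (4 higher and 22 lower) and 24 against the parental cells (3 higher and 21 lower), with median log2 fold changes of -0.595 and -0.697. Of these 40, 21 were apart in the knockout (2 higher and 19 lower), 10 of them, all lower, by a log2 fold change of 1 or more both times.

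**Figure D1:**
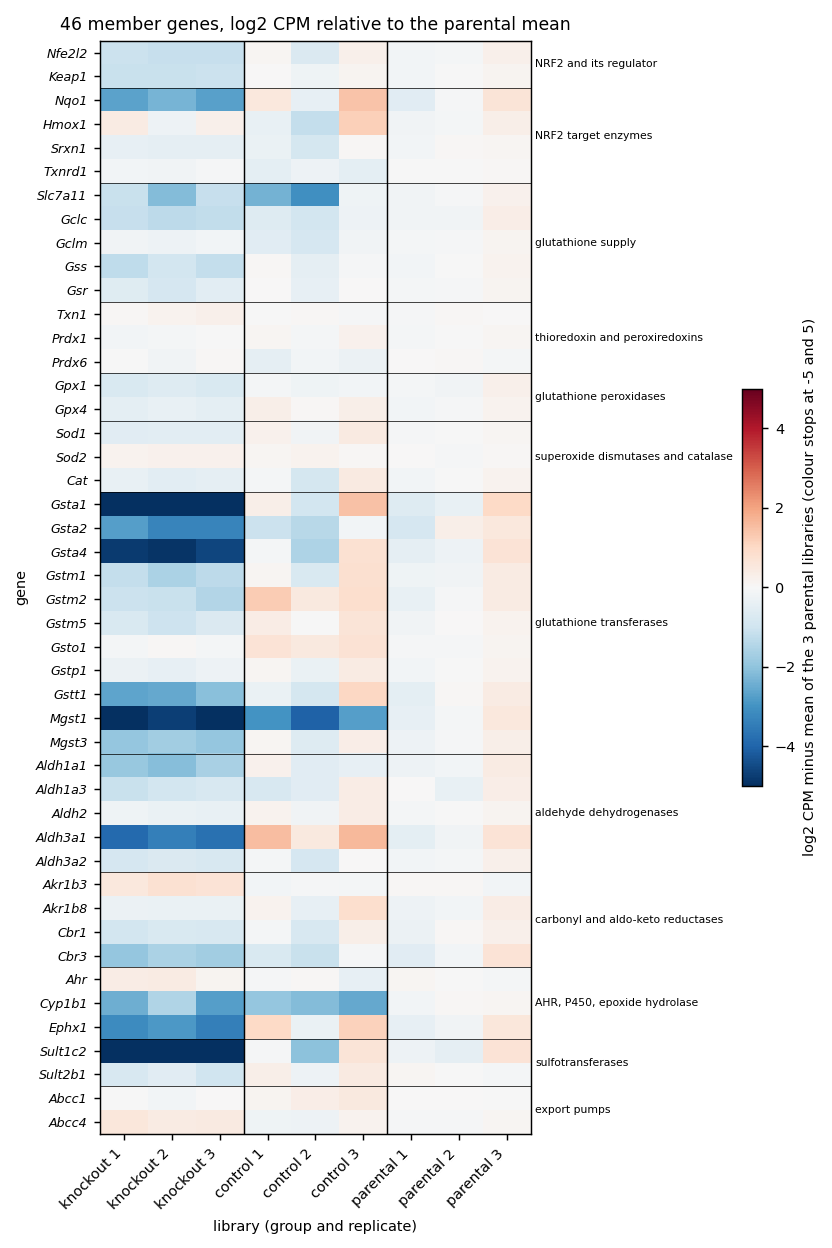
Level of the 46 members that passed the filter (rows, ordered by role) in the 9 libraries (columns), as log2 CPM minus the mean of the 3 parental libraries, with colours that stop at -5 and 5. The 3 knockout columns are dark blue for Gsta1, Gsta4, Mgst1 and Sult1c2, while the control columns differ among themselves, with control 2 paler or bluer than control 3 in most rows.

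Sult1c2, which transfers sulfate to phenols and other small compounds, lies at chr17:53829637-53846339 on the minus strand (ENSMUSG00000023122). All 3 knockout libraries were at 0. Its levels were 13.8, 3.39 and 22.1 CPM in the control and 11.9, 10.5 and 23.2 CPM in the parental group. The control and parental libraries overlapped, and control 2 was the lowest of the 6. These levels rest on 796 counts in the control group and 820 in the parental group, and 0 counts in the knockout group allow up to 3 counts, or 0.0540 CPM over that group. Only 0.723% of its 50-base words occur in another gene's transcripts, a pseudogene named Sult1c2-ps2, so its reads could be shared with few other places. The 10 tested neighbours of Sult1c2, 5 on each side, had log2 fold changes of -0.45 to 0.77 in the knockout against the control clone and of -0.33 to 0.66 against the parental cells, and 2 of them were apart higher and 1 apart lower in the knockout.

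Of the other sulfotransferases in the list, Sult2b1, which sulfates cholesterol and other hydroxysteroids, fell in the knockout clone. Its levels were 3.17, 3.78 and 2.74 CPM in the knockout, 7.03, 4.70 and 7.72 in the control and 6.07, 5.60 and 5.30 in the parental libraries, with no knockout library reaching any other. The log2 fold changes were -1.0 ± 0.21 and -0.81 ± 0.21 (adjusted p = 0.00432 and 0.0183), and the call against the parental cells was lost without knockout 1, knockout 3, parental 1 or parental 2 (adjusted p = 0.0672, 0.0711, 0.0627 and 0.053). Sult1a1, a phenol sulfotransferase, had 0 counts in the knockout group, 3 in the control group and 5 in the parental group.

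**Figure D2:**
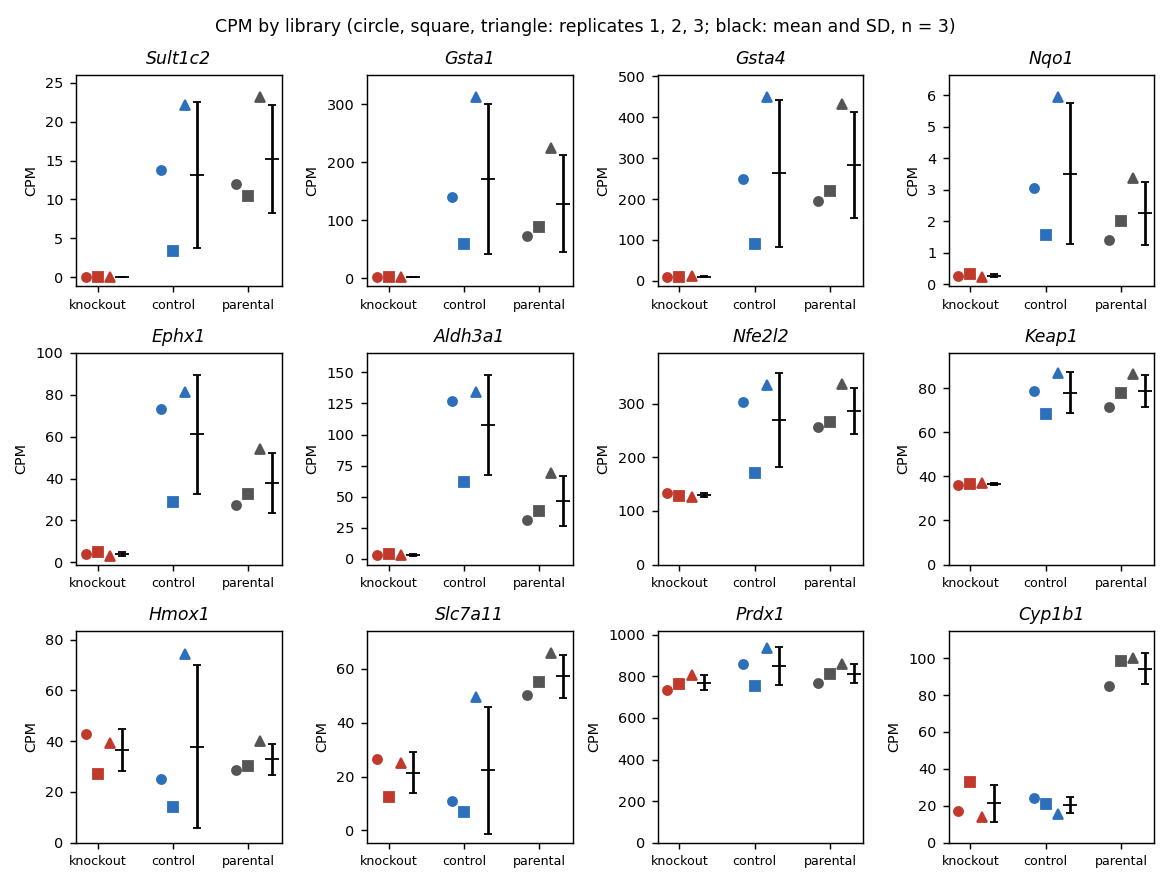
CPM of 12 members in each library (circle, square and triangle for replicates 1, 2 and 3 of the knockout, control and parental groups), with the mean and SD of the 3 libraries in black. For Sult1c2, Gsta1, Gsta4, Nqo1, Ephx1, Aldh3a1, Nfe2l2 and Keap1 all 3 knockout points lie below the other 6, whereas for Hmox1, Slc7a11 and Prdx1 knockout and control points overlap, and for Cyp1b1 the parental cells stand above both clones.

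Both genes at the head of the pathway fell in the knockout clone. Nfe2l2 (chr2:75675513-75704641, minus strand) was at 134, 127 and 127 CPM in the knockout, at 304, 170.3 and 335 in the control and at 257, 266 and 337 in the parental group. Keap1 (chr9:21229730-21239361, minus strand) was at 35.8, 36.4 and 37.1 CPM in the knockout, 78.8, 68.4 and 86.7 in the control and 71.6, 77.9 and 86.3 in the parental libraries. For both genes the knockout libraries lay below all others, and control and parental libraries overlapped. Nfe2l2 fell, with log2 fold changes of -1.06 ± 0.22 against the control clone and -1.15 ± 0.22 against the parental cells (adjusted p = 0.0038 and 0.00378). Keap1, whose product inhibits that of Nfe2l2, fell, with log2 fold changes of -1.10 ± 0.10 and -1.11 ± 0.10 (adjusted p = 5.76e-05 and 9.4e-05). The antisense gene Gm16754 overlaps exons of Keap1, and the strand setting of the counting is not given in the sources used here.

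The 4 classical NRF2 target enzymes did not share a direction. Nqo1, a quinone reductase and a widely used readout of NRF2 (chr8:107388225-107403206, minus strand), was at 0.244, 0.334 and 0.234 CPM in the knockout, 3.06, 1.55 and 5.93 in the control and 1.40, 2.0 and 3.35 in the parental libraries. The knockout libraries were below all others, with 15 counts in the group against 209 and 120. The means were 0.271 ± 0.0551, 3.51 ± 2.23 and 2.25 ± 1.0 CPM (SD, n = 3). Its 10 tested neighbours had log2 fold changes of -0.31 to 0.37 and of -0.49 to 0.45.

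Hmox1, haem oxygenase 1, overlapped between all groups, at 42.8, 27.1 and 39.2 CPM in the knockout, 25.0, 14.1 and 74.5 in the control and 28.6, 30.1 and 39.9 in the parental libraries. Its log2 fold changes were -0.06 ± 0.49 and 0.15 ± 0.49 (adjusted p = 0.936 and 0.846), and without control 3, the highest library, it was called higher in the knockout than in the control clone (0.88, adjusted p = 0.0245). Srxn1, sulfiredoxin, was at 41.6, 40.1 and 39.6 CPM in the knockout, 43.3, 30.1 and 57.8 in the control and 49.9, 56.7 and 58.2 in the parental libraries. It overlapped with the control clone and lay below the parental libraries, with log2 fold changes of -0.12 ± 0.19 and -0.44 ± 0.19 (adjusted p = 0.655 and 0.108). Without control 2 it was called lower in the knockout than in the control clone (-0.32, adjusted p = 0.0476) and than in the parental cells (adjusted p = 0.00905), the latter also without control 3 (adjusted p = 0.0184). In a fit of the knockout and parental libraries alone Srxn1 was called lower in the knockout (-0.44, adjusted p = 0.000415). Txnrd1, cytosolic thioredoxin reductase, was at 222, 216 and 231 CPM in the knockout, 172, 202 and 173 in the control and 241, 237 and 253 in the parental libraries, so that the 3 groups did not overlap and the knockout lay between the other two. Txnrd1 rose against the control clone by 0.29 ± 0.08 (adjusted p = 0.0167; 0.062 without knockout 3 and 0.0592 without control 1) and was at -0.13 ± 0.08 against the parental cells (adjusted p = 0.254).

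Of the 5 genes of glutathione supply, Gclc, Gss and Gsr fell in the knockout in both comparisons, where 24.2% and 18.3% of all tested genes were lower. Gclc, the catalytic subunit of the rate-limiting ligase of glutathione synthesis, was at 53.9, 48.7 and 51.4 CPM in the knockout, 78.3, 64.1 and 103 in the control and 108, 109 and 152 in the parental libraries. None of the 3 groups overlapped for Gclc, which was lowest in the knockout and highest in the parental cells. It fell in the knockout, with log2 fold changes of -0.67 ± 0.18 and -1.26 ± 0.18 (adjusted p = 0.0146 and 0.000937), and the call against the control clone was lost without knockout 2 (-0.62, adjusted p = 0.0583). Gclm, the modifier subunit of the same ligase, was at 174, 165 and 178 CPM in the knockout, 133, 109.6 and 174 in the control and 183, 191 and 219 in the parental libraries. Its log2 fold changes in the knockout were 0.31 ± 0.15 and -0.20 ± 0.15 (adjusted p = 0.122 and 0.347), and without control 3 it was called higher than in the control clone (0.51, adjusted p = 0.00383). In a fit of the knockout and parental libraries alone Gclm was called lower in the knockout (-0.19, adjusted p = 0.0388). The knockout libraries of Gclm lay within or above the range of the control clone, unlike those of its partner Gclc.

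Gss, which adds glycine in the last step of glutathione synthesis, fell from 53.1 ± 9.10 CPM in the control clone and 58.8 ± 6.53 in the parental cells to 27.0 ± 3.45 in the knockout (mean ± SD, n = 3; adjusted p = 0.000725 and 0.000561). Gsr, which regenerates reduced glutathione, was at 394 ± 45.4 CPM in the knockout against 569.7 ± 93.9 and 621 ± 52.2, and it fell, with log2 fold changes of -0.53 ± 0.13 and -0.66 ± 0.13 (adjusted p = 0.0104 and 0.0054; against the control clone 0.0547 without knockout 2). Gss shares exons with the antisense genes at its locus, Acss2 among them. Slc7a11, the cystine importer that feeds the pathway, was at 26.4, 12.6 and 25.2 CPM in the knockout, 10.9, 6.72 and 49.4 in the control and 50.4, 55.2 and 65.8 in the parental libraries. Both clones lay below the parental cells in every library, and the control clone spanned the knockout range because control 3 stood apart from controls 1 and 2. With log2 fold changes of -0.06 ± 0.62 and -1.42 ± 0.61 Slc7a11 was not called in the knockout in the fit of all 9 libraries (adjusted p = 0.946 and 0.107). Without control 3 it was called higher in the knockout than in the control clone (1.26, adjusted p = 0.0112) and lower than in the parental cells (adjusted p = 0.00263, and 0.0298 without control 2). In a fit of the knockout and parental libraries alone Slc7a11 was called lower in the knockout (-1.41, adjusted p = 0.000342).

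The abundant thioredoxin and peroxiredoxin genes did not pass the test in the knockout comparisons in the fit of all 9 libraries. Txn1, cytosolic thioredoxin, and Prdx1, a peroxidase that it reduces, had the highest levels of all members per kilobase of exon in every group, Txn1 at 359, 319 and 320 and Prdx1 at 253, 280 and 267 CPM per kilobase in the knockout, control and parental groups. Prdx1 was at 735, 765 and 807 CPM in the knockout, 862, 756 and 936 in the control and 767, 810.4 and 861 in the parental libraries, with overlap between all groups. Its log2 fold changes were -0.15 ± 0.09 and -0.08 ± 0.09 (adjusted p = 0.215 and 0.534). Txn1 was at 0.17 ± 0.07 and 0.16 ± 0.07 (adjusted p = 0.0795 and 0.111) and Prdx6, a peroxiredoxin that also uses glutathione, at 0.24 ± 0.10 and -0.05 ± 0.10 (adjusted p = 0.0787 and 0.757). Without control 2 all 3 were called against the control clone, Txn1 higher (0.20, adjusted p = 0.0426), Prdx6 higher (0.33, adjusted p = 0.0137) and Prdx1 lower (-0.22, adjusted p = 0.0346). Prdx6 was also called without knockout 2 (0.32, adjusted p = 0.0433).

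Both tested glutathione peroxidases fell in the knockout clone. Gpx1, which reduces hydrogen peroxide in the cytosol, was at 65.9 ± 3.07 CPM in the knockout against 99.0 ± 3.84 in the control clone and 109.9 ± 18.5 in the parental cells, with log2 fold changes of -0.59 ± 0.11 and -0.74 ± 0.11 (adjusted p = 0.00263 and 0.00121). Gpx4, which reduces lipid peroxides and protects against ferroptosis, was at 152 ± 6.07 against 239 ± 22.2 and 208 ± 25.2 CPM, with -0.65 ± 0.10 and -0.45 ± 0.10 (adjusted p = 0.000948 and 0.00975). The pseudogene Gpx4-ps2 shares 34.7% of the 50-base words of Gpx4, so part of its count depends on how shared reads were divided. Gpx2 and Gpx3 had at most 2 and 4 counts in a group.

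Of the superoxide dismutases, the cytosolic Sod1 fell and the mitochondrial Sod2 did not. Sod1 was at 192 ± 3.63 CPM in the knockout, 318 ± 67.7 in the control and 278 ± 16.2 in the parental group, a change of -0.72 ± 0.14 and -0.53 ± 0.14 (adjusted p = 0.00237 and 0.0155). Against the parental cells the call of Sod1 was lost without any 1 of the knockout libraries or without parental 3 (adjusted p = 0.0643, 0.0517, 0.0503 and 0.0689). Sod2 was at 87.0 ± 2.12, 80.9 ± 3.25 and 75.3 ± 2.99 CPM, higher than in the parental cells by 0.21 ± 0.07 (adjusted p = 0.0424), a call that was lost in 7 of the 9 fits that leave out a library (adjusted p = 0.0557 to 0.161). Cat, catalase, overlapped with the control clone, at 83.8, 74.8 and 79.5 CPM against 102, 59.5 and 149.5, and it was at -0.39 ± 0.26 and -0.46 ± 0.26 (adjusted p = 0.255 and 0.206). Without control 2, its lowest library, Cat was called lower in the knockout in both comparisons (adjusted p = 0.00409 and 0.02). A fit of the knockout and parental libraries alone also called Cat lower in the knockout (-0.46, adjusted p = 0.000831).

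The glutathione transferases, which conjugate glutathione to electrophiles, held the largest differences among the tested members other than Sult1c2. Of 11 tested members 10 fell against the control clone and 9 against the parental cells, with median log2 fold changes of -2.24 and -1.90, where 24.2% and 18.3% of all tested genes were lower. Without Gsta2, Gstt1 and Mgst1, which had no knockout library above the filter level, 7 and 6 of 8 fell, with medians of -1.70 and -1.36. The summed level of 25 glutathione transferase genes, members and others, was 690.7, 705.5 and 699.2 CPM in the knockout, 1545, 1066 and 2065 in the control and 1084, 1179 and 1672 in the parental libraries. The knockout libraries lay close together, below all others.

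Gsta1, an alpha-class enzyme (chr9:78230656-78242684, plus strand), was at 1.76, 1.95 and 1.93 CPM in the knockout, 140.1, 59.5 and 312 in the control and 73.1, 87.8 and 224 in the parental libraries. Gsta4, which handles the lipid peroxidation product 4-hydroxynonenal (chr9:78182774-78209349), was at 9.57, 8.74 and 10.9 CPM in the knockout, 249, 91.3 and 449.6 in the control and 197, 220.5 and 432 in the parental libraries. The knockout libraries were far below the rest for both genes, while the other 6 libraries overlapped and spread widely. Gsta1 fell, with log2 fold changes of -6.50 ± 0.77 and -6.09 ± 0.76 (adjusted p = 0.000198 and 0.000428), and Gsta4 fell with -4.76 ± 0.58 and -4.86 ± 0.58 (adjusted p = 0.00023 and 0.000351). Per kilobase of exon, Gsta4 ranked 4 among the members in the control and parental groups, at 208 and 224 CPM per kilobase, and was at 7.70 in the knockout. Gsta2, a low-level relative of Gsta1, was at 0.0488, 0 and 0 CPM in the knockout, 0.393, 0.297 and 0.840 in the control and 0.482, 1.18 and 1.41 in the parental group, with every knockout library below the others. It had 1 count in the knockout group against 30 in the control and 54 in the parental group.

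Gsta1 and its copies share most of their sequence. Of the 50-base words in Gsta1 transcripts 90.5% occur in other genes, 75.7% in Gm3776, and the share for Gsta2 is 49.8%, so the division of reads between them is uncertain. Summed over Gsta1, Gsta2, Gm3776 and Gm10639, the level was 3.22, 4.51 and 2.86 CPM in the knockout, 199.9, 88.8 and 446 in the control and 116, 138 and 324 in the parental libraries. The control and parental means were 69.3 and 54.5 times that of the knockout. On chromosome 9, where Gsta1, Gsta2, Gsta4, Keap1, Gclc and Gpx1 lie, the median log2 fold change of 748 tested genes in the knockout was -0.53 in both comparisons. Of the 8 tested neighbours of Gsta1 that are not members, 5 were apart lower in the knockout and 1 higher, and of those of Gsta4 6 and 1, the copies Gm3776 and Gm10639 among them. Without Gm10639 and the transcript C920006O11Rik, which had no knockout library above the filter level, 3 and 4 of 6 were apart lower. Ick, a kinase gene beside Gsta4, changed by -1.30 and -1.28 (adjusted p = 0.000224 and 0.000392). The part of the region in the levels of the alpha-class genes was not tested.

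Among the mu-class enzymes Gstm1, Gstm2 and Gstm5 fell. Gstm1 was at 11.7, 8.90 and 10.9 CPM in the knockout, 28.9, 15.7 and 46.6 in the control and 23.2, 23.9 and 35.5 in the parental libraries, below all others, and fell, with log2 fold changes of -1.54 ± 0.35 and -1.39 ± 0.35 (adjusted p = 0.00618 and 0.0143; against the parental cells 0.0589 without knockout 2 and 0.062 without parental 3). Gstm2 was at 0.879, 0.835 and 0.642 CPM in the knockout, 4.89, 2.74 and 3.57 in the control and 1.49, 1.89 and 2.59 in the parental libraries. Its 3 groups did not overlap, with the control clone highest. Gstm2 fell, with log2 fold changes of -2.24 ± 0.32 and -1.32 ± 0.33 (adjusted p = 0.000509 and 0.0133; against the parental cells 0.0526 without knockout 3 and 0.0587 without parental 3). Gstm5 fell, with log2 fold changes of -1.19 ± 0.18 and -0.84 ± 0.18 (adjusted p = 0.000711 and 0.00681), and the antisense gene 4933431E20Rik overlaps its exons. Of the 8 tested neighbours of Gstm1 that are not members 3 were apart lower in the knockout, Eps8l3 by -4.84 and -3.24 (adjusted p = 0.000128 and 0.00171).

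Among the microsomal and theta-class enzymes, Mgst3, a membrane enzyme with peroxidase activity, was the most abundant. Mgst3 was at 24.7, 28.3 and 25.1 CPM in the knockout, 101, 61.8 and 120.4 in the control and 80.3, 91.8 and 119 in the parental libraries. The knockout libraries lay below all others, and Mgst3 fell, with log2 fold changes of -1.86 ± 0.23 and -1.90 ± 0.23 (adjusted p = 0.000268 and 0.0004). Mgst1 (chr6:138140316-138156755, plus strand) separated all 3 groups, at 0.0488, 0.111 and 0.0584 CPM in the knockout, 0.611, 0.238 and 0.735 in the control and 4.09, 5.13 and 8.06 in the parental libraries. These levels come from 4, 32 and 309 counts. The knockout was lowest and the parental cells were highest. Gstt1, with 4 counts in the knockout group against 57 and 47, was at 0.0488, 0.0556 and 0.117 CPM in the knockout, 0.655, 0.416 and 1.84 in the control and 0.578, 0.884 and 1.18 in the parental libraries. Its knockout libraries lay below all others.

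Gsto1 and Gstp1 differed from the rest of the family. Gsto1, an omega-class enzyme with reductase activity, was at 326, 358 and 325 CPM in the knockout and 329.9, 333 and 380.4 in the parental libraries, which overlapped, against 556, 481 and 579.8 in the control clone. It fell against the control clone by 0.68 ± 0.09 (adjusted p = 0.000449) and was at -0.05 ± 0.09 against the parental cells (adjusted p = 0.729). Gstp1, the transferase most often reported in carcinoma cells, was at 217 ± 11.7 CPM in the knockout, 289 ± 70.8 in the control and 271 ± 31.4 in the parental group. Its log2 fold changes were -0.41 ± 0.16 and -0.32 ± 0.16 (adjusted p = 0.0658 and 0.16), and without control 2 it was called lower in both comparisons (adjusted p = 0.00222 and 0.0319). A fit of the knockout and parental libraries alone also called Gstp1 lower in the knockout (-0.32, adjusted p = 0.00715). Gstp2 shares 33.7% of the 50-base words of Gstp1.

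Among the aldehyde dehydrogenases Aldh3a1 and Aldh1a1 were apart in the knockout clone. Aldh3a1, which oxidises aromatic and medium-chain aldehydes (chr11:61207537-61218421), was at 2.83, 3.95 and 3.21 CPM in the knockout, 127, 61.7 and 134 in the control and 31.5, 38.2 and 69.4 in the parental libraries. Aldh1a1, which makes retinoic acid and is used as a marker of progenitor-like carcinoma cells, was at 27.9, 23.5 and 33.1 CPM in the knockout, 120.4, 70.0 and 77.4 in the control and 86.0, 93.8 and 137 in the parental libraries. For both genes the knockout libraries lay below the other 6, which overlapped between their groups. Aldh3a1 fell, with log2 fold changes of -5.02 ± 0.42 and -3.80 ± 0.41 (adjusted p = 3.09e-05 and 0.000186), and Aldh1a1 fell with -1.67 ± 0.24 and -1.91 ± 0.25 (adjusted p = 0.000636 and 0.000512). The 9 tested neighbours of Aldh3a1 that are not members had log2 fold changes of -0.23 to 0.61 and of -0.26 to 0.80.

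The other aldehyde dehydrogenases differed less. Aldh2, the mitochondrial enzyme of ethanol metabolism, fell against the control clone by 0.45 ± 0.13 (adjusted p = 0.0174; 0.0664 without knockout 2 and 0.0665 without knockout 3) and was at -0.31 ± 0.13 against the parental cells (adjusted p = 0.0905; 0.0151 without control 2 and 0.0262 without control 3). Aldh3a2, which oxidises fatty aldehydes, fell against the parental cells by 0.80 ± 0.20 (adjusted p = 0.0154; 0.0633, 0.0522 and 0.0723 without knockout 1, knockout 3 and parental 3). Against the control clone Aldh3a2 was at -0.53 ± 0.20 (adjusted p = 0.0572, and 0.00046 without control 2). Aldh1a3, another retinaldehyde dehydrogenase, was at 1.21 ± 0.135 CPM in the knockout, 2.05 ± 1.0 in the control and 2.49 ± 0.617 in the parental group (adjusted p = 0.119 and 0.0534; against the parental cells 0.0451, 0.0391 and 0.0115 without control 1, 2 and 3). In a fit of the knockout and parental libraries alone Aldh2 and Aldh1a3 were called lower in the knockout (adjusted p = 0.00317 and 0.00716). A fit of the knockout and control libraries alone did not call Aldh2 (-0.43, adjusted p = 0.0512). The summed level of 20 aldehyde dehydrogenase genes was 694.7, 619.7 and 684.5 CPM in the knockout, 909.6, 630.0 and 1099 in the control and 786.5, 835.7 and 997 in the parental libraries, so that control 2 overlapped with the knockout.

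The aldose reductase gene rose in the knockout clone. Akr1b3, aldose reductase, was at 312, 358 and 347 CPM in the knockout, 197, 208 and 198 in the control and 223, 223 and 197 in the parental libraries. Every knockout library was above the other 6, and Akr1b3 rose by 0.75 ± 0.08 and by 0.66 ± 0.08 (adjusted p = 0.000124 and 0.000405). Cbr3 was at 0.195, 0.278 and 0.234 CPM in the knockout, 0.567, 0.416 and 0.997 in the control and 0.674, 0.943 and 1.71 in the parental libraries, from 13, 39 and 59 counts. The knockout libraries of Cbr3 lay below the other 6, which overlapped. Cbr1, which reduces quinones and anthracyclines, was at 7.31 ± 0.380 CPM in the knockout against 12.0 ± 4.32 and 13.3 ± 2.65 (adjusted p = 0.0449 and 0.0288). The log2 fold change of Cbr1 against the control clone was -0.72 ± 0.25, and its call was lost in 11 of 17 alternatives, among them each fit that leaves out a library other than control 2 (adjusted p = 0.0535 to 0.134), while the fold change ran from -0.96 to -0.46. The call against the parental cells was lost without any knockout library, parental 2 or parental 3 (adjusted p = 0.074 to 0.114). Akr1b8, an aldo-keto reductase, overlapped with the control clone and was at -0.60 ± 0.27 and -0.34 ± 0.27 (adjusted p = 0.103 and 0.382; against the control clone 0.00564 without control 2).

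Ephx1, which hydrolyses epoxides made by P450 enzymes (chr1:180976210-181020904, minus strand), was at 4.0, 4.84 and 3.27 CPM in the knockout, 73.2, 28.9 and 81.2 in the control and 27.2, 32.5 and 54.2 in the parental libraries. The knockout libraries lay below all others, and the control and parental libraries overlapped. Ephx1 fell, with log2 fold changes of -3.92 ± 0.43 and -3.23 ± 0.43 (adjusted p = 0.000136 and 0.000578). Of its 10 tested neighbours 2 were apart lower in the knockout, and their log2 fold changes reached from -0.68 to 0.37 against the control clone. Ahr, the aryl hydrocarbon receptor, rose against the control clone by 0.43 ± 0.13 (adjusted p = 0.0219; 0.0639 without knockout 1 and 0.0667 without knockout 2) and was at 0.31 ± 0.13 against the parental cells (adjusted p = 0.0993; 0.027 without control 3). In a fit of the knockout and parental libraries alone Ahr was called higher in the knockout (0.31, adjusted p = 0.0136). Cyp1b1, a P450 that the receptor induces (chr17:79701537-79715061), was at 17.3, 32.7 and 14.0 CPM in the knockout, 24.5, 20.8 and 15.7 in the control and 84.8, 98.3 and 99.9 in the parental libraries. Both clones overlapped and lay below the parental cells. The knockout was lower than the parental cells by -2.15 ± 0.29 and the control clone by -2.21 ± 0.29 (adjusted p = 0.000581 and 0.00103), and the clones were at 0.06 ± 0.29 (adjusted p = 0.875).

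The export pumps moved in different directions. Abcc4, which exports conjugates and cyclic nucleotides, was at 123, 110.4 and 113 CPM in the knockout, 71.8, 69.9 and 93.6 in the control and 80.6, 80.2 and 88.0 in the parental libraries, with every knockout library above the others. It rose by 0.56 ± 0.11 and by 0.48 ± 0.11 (adjusted p = 0.0038 and 0.0119), and the call against the parental cells was lost without knockout 1 or parental 2 (adjusted p = 0.0552 and 0.0525). Abcc1, which exports glutathione conjugates, was at 113 ± 6.29 CPM in the knockout, 145 ± 17.0 in the control and 116 ± 2.23 in the parental group. It fell against the control clone by 0.36 ± 0.09 (adjusted p = 0.0114; 0.0541 without knockout 2) and was at -0.04 ± 0.09 against the parental cells (adjusted p = 0.767).

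**Figure D3:**
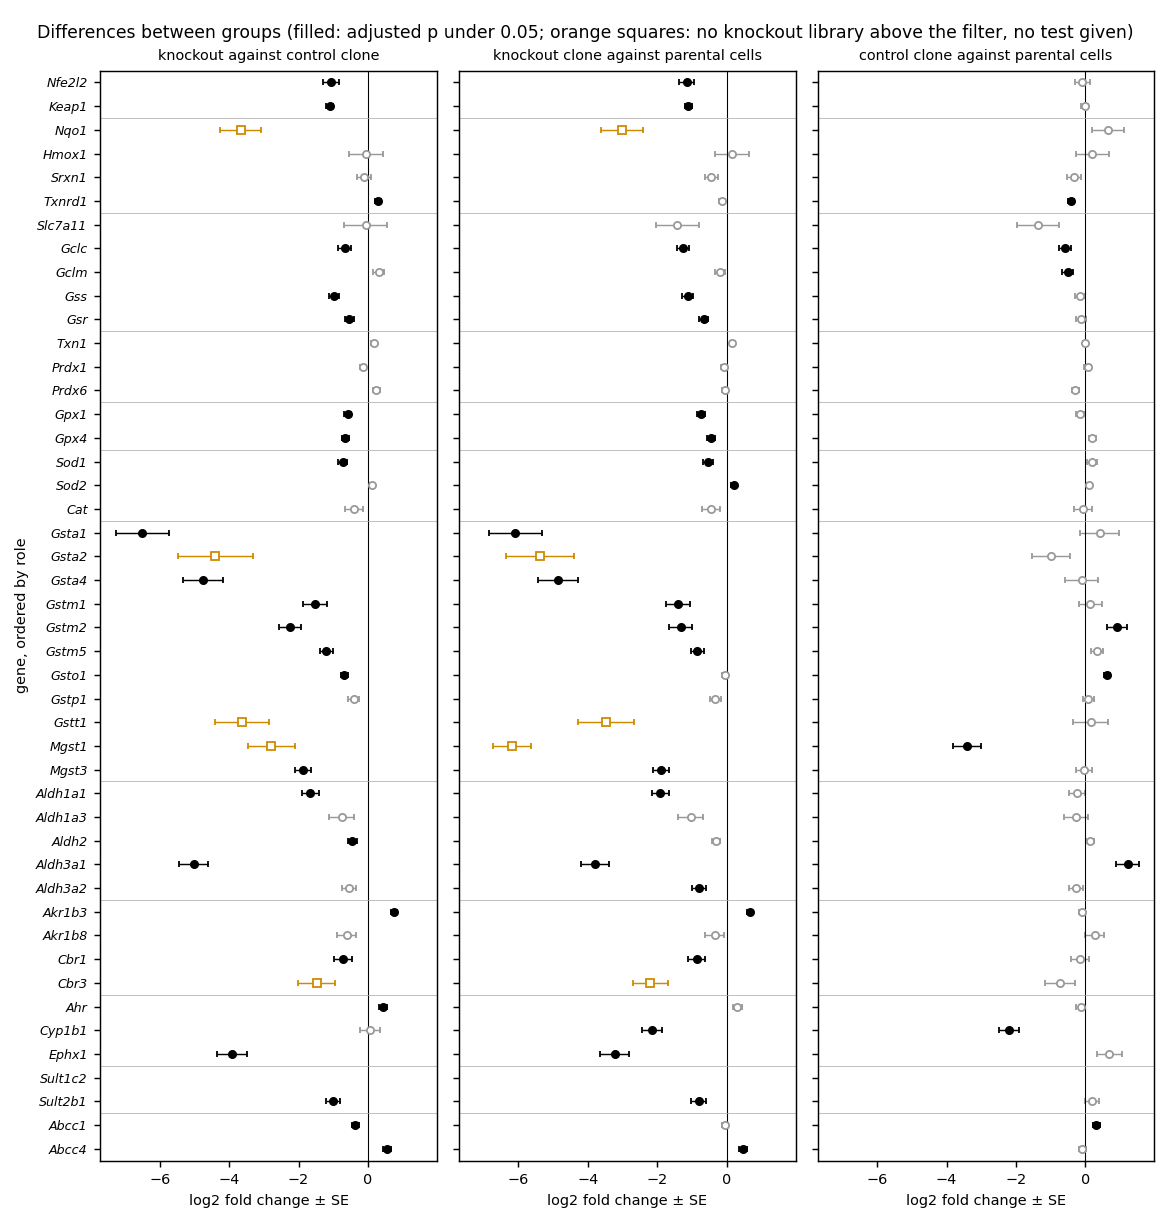
Log2 fold change with its SE for each tested member (rows, ordered by role) in the 3 comparisons, with filled points where the adjusted p was under 0.05 orange squares where no knockout library was above the filter level and no test is given, and no point for Sult1c2. Gsta1, Gsta4, Aldh3a1 and Ephx1 lie far to the left in both knockout panels, Gstp1 and Gsto1 lie nearer to 0, Akr1b3 and Abcc4 lie to the right, and most points of the third panel sit near 0. The fitted value of Gsta2 rests on 1 knockout count.

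Some members lie on chromosomes whose tested genes had a median away from 0 in the knockout. The median log2 fold change of the tested genes in the knockout was -0.35 and -0.29 against the control clone and the parental cells on chromosome 16, which holds Sod1, Cbr1, Cbr3 and Abcc1 (403 genes). It was 0.19 and 0.21 on chromosome 14, which holds Abcc4. On chromosome 17, which holds Sult1c2, Cyp1b1 and Sod2, it was 0.14 and 0.21. The part of the chromosome in the differences of these members, and of those on chromosome 9 named above, was not tested. Nqo1, Aldh3a1, Ephx1, Gstt1, Mgst3 and Aldh1a1 lie on chromosomes 8, 11, 1, 10, 1 and 19, where the medians ran from -0.14 to 0.18. The medians of chromosome 19 against the control clone (0.18) and of chromosome 1 against the parental cells (-0.14) were similar in size to those of chromosome 17. The part of these chromosomes was not tested either.

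**Figure D4:**
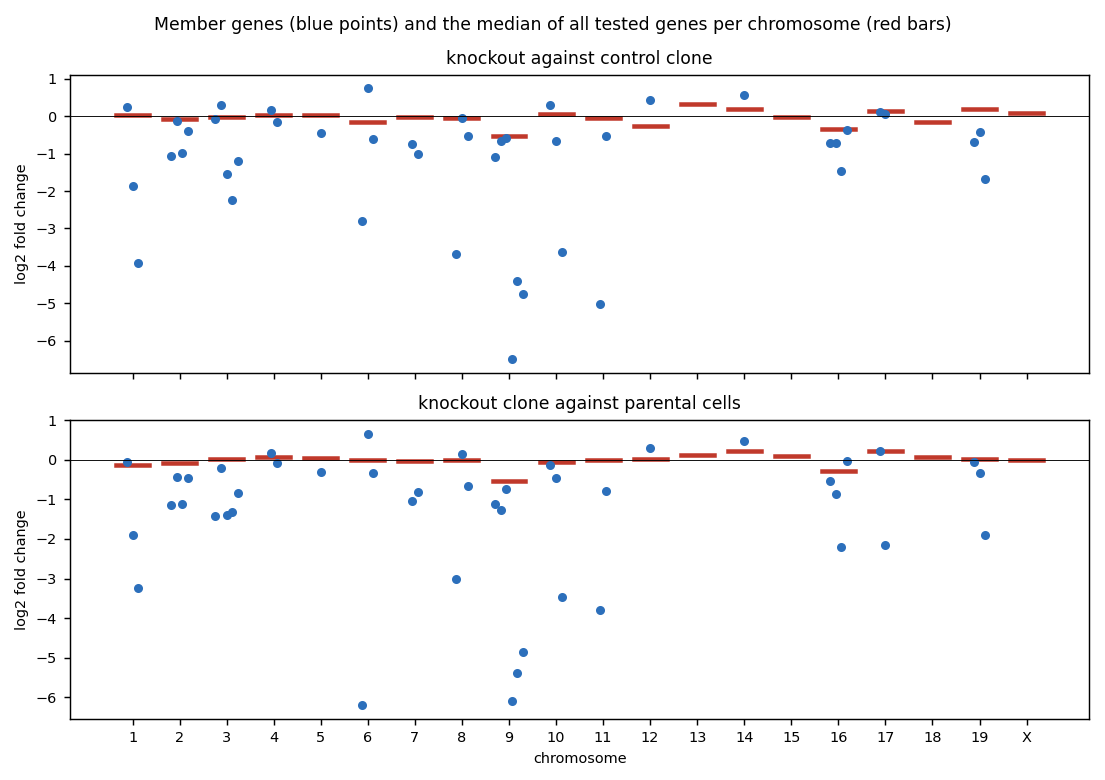
Log2 fold change of each tested member other than Sult1c2 (points) of the knockout against control (top) and parental (bottom), by chromosome, with the median of all tested genes of that chromosome as a bar. The bars of chromosomes 9 and 16 lie below 0 in both panels, and the points of Gsta1 and Gsta4 on chromosome 9 lie far below their bar. The points of Nqo1, Gsta2, Gstt1, Mgst1 and Cbr3 are fitted values given without a test, since no knockout library was above the filter level.

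Fewer members differed between the unedited clone and the uncloned line. Of 45 tested members other than Sult1c2, 9 were called, 4 higher and 5 lower in the control clone, where 21.4% of all genes were called (10.4% higher and 11% lower), and the median was -0.07 against 0.01 for all genes. Mgst1 was lower in the control clone by -3.40 ± 0.40, Cyp1b1 by -2.21 ± 0.29 and Txnrd1 by -0.42 ± 0.08 (adjusted p = 0.000646, 0.00103 and 0.00668), and Gsto1 was higher by 0.63 ± 0.09 (adjusted p = 0.00201). The remaining 5 calls were lost when some single libraries were left out: Aldh3a1 at 1.22 ± 0.33, Gstm2 at 0.92 ± 0.29, Abcc1 at 0.32 ± 0.09, Gclc at -0.59 ± 0.18 and Gclm at -0.51 ± 0.15 (adjusted p = 0.03, 0.0489, 0.0362, 0.0448 and 0.0393). Their adjusted p then reached 0.114, 0.178, 0.118, 0.148 and 0.125 in the same order. Without any 1 of the knockout or parental libraries or control 1, 4 or 5 members were called in all. Without control 3 Slc7a11 was called lower in the control clone (-2.68, adjusted p = 0.000771), and without control 2 Ephx1 was called higher (adjusted p = 0.0111). Apart in the control clone were Gstm2, Gsto1, Aldh3a1 and Abcc1, all higher, and Txnrd1, lower, against 13.4% of all genes (7.01% higher and 6.41% lower), and 1 to 3 members were so without any 1 of the knockout or parental libraries or control 1, and 9 without control 2. Of these Aldh3a1 differed by a log2 fold change of 1 or more from both other groups, against 3.28% of all genes (1.95% higher and 1.33% lower). Gclc and Cyp1b1 were apart in the parental cells, both higher, against 5.85% of all genes (3.7% higher and 2.14% lower). With Mgst1, whose knockout side is not tested here, there were 3 such members, and 5 without control 3. Cyp1b1 differed by 1 or more both times, against 2.08% of all genes (1.67% higher and 0.403% lower).

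The members also varied together among the libraries of the control and parental groups. Of the 46 tested members 39 were higher in control 3 than in control 2, by a median of 0.694 on the log2 CPM scale, while 50.5% of all tested genes were. In the parental group 41 of 46 were higher in replicate 3 than in replicate 1 (median 0.34) and 40 were higher than in replicate 2 (median 0.234), against 50.3% and 49.5% of all genes. In the knockout group the share of members higher in 1 library than in another was 45.7% to 54.3%. Control 2 held the lowest value of its group for 37 members and control 3 the highest for 33, Gsta1, Gsta4, Nqo1 and Sult1c2 among them. The median SD of the members' log2 CPM was 0.39 in the control, 0.192 in the parental and 0.096 in the knockout group, where that of all tested genes was 0.241, 0.104 and 0.0935. No test was made of this spread, and its part in the results above was not tested.

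Other genes of the same pathways, 106 in all with 84 tested, were more often lower than higher in the edited cells, as were all tested genes. Of the 84, 45 (53.6%) were called against the control clone, 12 higher and 33 lower, with a median log2 fold change of -0.27. Among all tested genes 42.9% were called there, 18.7% higher and 24.2% lower. Against the parental cells 35 (41.7%) were called, 8 higher and 27 lower, with a median of -0.23. Among all tested genes 31.4% were called there, 13.1% higher and 18.3% lower. Apart in the knockout were 26 (4 higher and 22 lower), a share of 31.0% against 21.5% of all (8.19% higher and 13.4% lower). Without Gstk1, Gstp2, Gstt3, Sult1b1 and Ugt1a7c, which had no knockout library above the filter level, 79 genes were counted. Of these 40 were called against the control clone (12 higher and 28 lower) and 30 against the parental cells (8 higher and 22 lower). Their medians were -0.242 and -0.165. Apart in the knockout were 21 of the 79 (4 higher and 17 lower), against 21.5% of all tested genes. Counted without these 5, 3 of 5 other glutathione transferases and 3 of 6 other sulfotransferases and sulfate-donor genes were apart lower. Of 23 other drug-handling genes 2 were apart higher and 4 lower (26.1%), and of 11 other aldehyde dehydrogenases 1 was higher and 3 were lower (36.4%). Of 14 other thiol and peroxide enzymes 1 was apart higher and 2 lower (21.4%), and of 20 other NRF2-pathway genes 2 were lower (10.0%), both shares at or below that of all genes.

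Among the sulfation genes, Papss2, which makes the sulfate donor PAPS, was at 17.4 ± 2.10 CPM in the knockout, 129 ± 40.4 in the control and 93.7 ± 18.1 in the parental group (log2 fold changes -2.89 and -2.42, adjusted p = 2.99e-05 and 0.000114). Sult1d1, another sulfotransferase, was at 0.634 ± 0.110 against 10.3 ± 6.65 and 14.2 ± 7.38 CPM (-4.02 and -4.48, adjusted p = 0.00157 and 0.00135). Both were picked by the size of their difference from a list in which 3 of 6 counted genes were apart lower and 0 higher.

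Of the glucuronosyltransferases, which attach glucuronic acid, Ugt1a6a was at 4.07 ± 1.16 CPM in the knockout against 59.4 ± 21.5 and 61.5 ± 10.8 (-3.88 and -3.93, adjusted p = 3.34e-05 and 5.59e-05). Ugt1a7c was at 0.225 ± 0.254 against 6.20 ± 2.73 and 54.7 ± 18.0 CPM. Genes of this cluster share their downstream exons, so the division of reads between them is uncertain. Aldh1a7, a close relative of Aldh1a1, was at 1.97 ± 0.450 against 43.5 ± 23.2 and 27.4 ± 14.9 CPM (-4.47 and -3.80, adjusted p = 0.000297 and 0.0011), and Aldh6a1, a mitochondrial enzyme of valine breakdown, changed by -2.33 and -1.36 (adjusted p = 0.000646 and 0.0155). Gstt3 was at 0.0738 ± 0.0374 against 1.68 ± 1.12 and 1.48 ± 0.508 CPM, and Gstk1, the mitochondrial kappa-class transferase, had 0 counts in the knockout against 12 and 38. Among NRF2-pathway genes Osgin1, an oxidative stress response gene, was at 20.4 ± 0.776 CPM in the knockout against 82.8 ± 14.0 and 60.4 ± 9.41 (-2.02 and -1.56, adjusted p = 1.46e-05 and 8.9e-05), and Pir, pirin, changed by -0.72 and -1.43 (adjusted p = 0.0243 and 0.00119). Txnip, the inhibitor of thioredoxin, changed by -0.87 and -1.09 (adjusted p = 0.0269 and 0.0141), and the mitochondrial glutaredoxin Glrx2 by -0.40 and -0.52 (adjusted p = 0.0198 and 0.00863).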

How the data were processed

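Messenger RNA libraries of 9 cultures (KAPA mRNA HyperPrep) were sequenced, and the authors deposited RSEM expected counts per Ensembl gene, as whole numbers, per the file headers and values. The submitters' processing notes name RSEM 1.3.0, STAR 2.5.2, DESeq2 1.10.1 and GRCm38. The annotation release and strand setting are not given in the sources used here. RSEM divides reads shared by similar genes, so values of copies are uncertain.

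Counts were tested with edgeR 4.0.16 in R 4.3.3 (quasi-likelihood, TMM, filterByExpr with minimum count 10 and minimum total 15) in 1 fit of all 9 libraries and 3 groups. Adjusted p-values are Benjamini-Hochberg over all tested genes. CPM are TMM-scaled, errors are SE of log2 fold changes or SD (n = 3), and the limit for a count of 0 holds for counting error alone, because PCR copies of a molecule are counted as separate reads. The fit was tested on simulated data. Symbols and positions are from GENCODE M21 on GRCm38.

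The members, lists and tests were chosen with earlier results of these data known. By rule, values in every library are given for Sult1c2, for Nfe2l2, Keap1, Nqo1, Hmox1, Srxn1, Txnrd1, Slc7a11, Gclc and Gclm, and for members apart in a group by a log2 fold change of 1 or more both times. Other pathway genes are named by the 1 or 2 largest differences per list among those apart in a group. Per-library values of Sult2b1, Prdx1, Gsto1, Cat, Akr1b3 and Abcc4 were added after they were seen. Alternatives were other scalings, filters, tests and thresholds, a replicate block, fits of 2 groups and leaving out each library.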

Additional observations from a re-analysis of the deposited data

How the results depend on the processing

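Apart from an added fold threshold, direction and call held in each alternative in which the gene could be tested for 23 of the 31 members called against the control clone, 21 of the 29 called against the parental cells and 4 of the 9 called between control and parental. Without the 5 members that had no knockout library above the filter level it held for 19 of 26 and 16 of 24. Of the members not called, 11 of 14, 9 of 16 and 7 of 36 passed in some alternative. The log2 fold changes of Hmox1 and Slc7a11 against the control clone turned from -0.06 each to 0.88 and 1.26 without control 3, and were -0.44 and -0.48 without control 2. The replicate numbers did not pair the libraries: deviations of same-numbered libraries correlated at -0.134 to 0.212, 1 of 9 pairs over 0.1, and those of other numbers at -0.301 to 0.252, 3 of 18 over 0.1. With the number as a replicate block, 33, 30 and 8 members were called in the 3 comparisons, against 31, 29 and 9 without it, and 26, 4 and 4 were apart in the knockout, control and parental groups.

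With an added log2 fold change of at least 1, 1843, 1392 and 851 genes were called against control, against parental and between these, with 17, 18 and 3 members, of which 17, 18 and 2 were lower, and 15, 1 and 2 members were apart in the knockout, control and parental groups. In fits of only the 2 groups compared, 4348, 6840 and 1525 genes were called, with 25 (21 lower), 37 (32 lower) and 4 (3 lower) members, and 22, 2 and 1 members were apart in the knockout, control and parental groups. With a mean of at least 5 CPM, 5 members (2 lower) were called between control and parental and 1 was apart in the parental cells, and with no filter 3 were apart in the control clone.

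Leaving out 1 library, the genes called ranged from 4301 to 7204 against control, from 2515 (without parental 3) to 5693 against parental and from 1472 (without parental 1) to 4102 between control and parental. Members called ranged from 25 to 39, 23 to 35 and 4 to 12, and those lower from 21 to 33, 21 to 32 and 3 to 8. Members apart ranged from 20 to 31 in the knockout, 1 to 9 in the control and 2 to 5 in the parental group. Scaling to total counts made 61.2% of the calls between control and parental lower, against 51.3%, and moved the median of all genes by under 0.1. The causes of these changes were not tested. Tested members with under 60 counts in a group (Gsta2, Gstt1, Mgst1, Cbr3, Nqo1, Gstm2 and Sult1c2) and the 4 untested ones are limited by depth.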
